A study of Mus musculus with 6 samples.

Results

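The respiratory chain genes described here are 92 rows, of 14366 in the gene table, chosen by symbols used for the oxidative phosphorylation system. The nuclear symbols were Nduf followed by a class letter and a number, Sdha to Sdhd, Uqcr, Cyc1, Cox4 to Cox8 and Atp5. The protein genes of the mitochondrial genome were mt-Nd, mt-Co, mt-Cytb and mt-Atp. Of the 92 rows, 81 are encoded in the nucleus and 11 in mitochondrial DNA. Complex I had 43 members, complex II 4, complex III 10, complex IV 17 and complex V 18. Members were assigned to a complex by symbol alone, so Atp5s and Atp5sl are counted in complex V whatever their product does. The symbols are those of the deposited table, in which ATP synthase genes keep the older prefix Atp5, and Atp5sl is carried as Dmac2 in a later annotation. mt-Atp8, mt-Nd4l, Cox6a2, Cox8b and Cox8c were not analysed here.

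The samples were mesonephroi dissected from male mouse embryos at day 16.5 of gestation, the tissue that holds the Wolffian duct, its mesenchyme and the mesonephric tubules and that gives rise to the epididymis. Controls (3 samples) were Osr2Cre+;Gata2-flox/+ and Gata2cKO samples (3) were Osr2Cre+;Gata2-flox/flox, so both groups carried the Cre recombinase and at least 1 floxed Gata2 allele, and the controls kept 1 unfloxed allele. The recombinase follows Osr2, a gene of mesenchyme, so cells of the same tissue that neither express Osr2 nor descend from cells that did keep Gata2. The comparison belongs to a study of Gata2 in the mesenchyme around the developing duct. The sources used here do not say whether each sample was its own embryo or litter, so p-values measure only how these samples spread, and in whole tissue fewer cells of a type and less RNA per cell cannot be told apart.

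Oxidative phosphorylation moves electrons from NADH (through complex I) and from succinate (through complex II) to ubiquinone, on to cytochrome c through complex III, and to oxygen through complex IV. Complexes I, III and IV pump protons across the inner mitochondrial membrane, and complex V, the ATP synthase, lets them back in to make ATP. Complexes I, III, IV and V are assembled from subunits of both genomes, whereas all subunits of complex II are nuclear. Mitochondrial genes are transcribed as long polycistronic RNAs from which tRNAs are cut out, so their mRNA levels depend on processing and stability as well as on transcription.

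Values are TPM (transcript abundance per library total), a level scaled for gene length and for the library total, and 3 values given for a group stand for its replicates 1, 2 and 3. Changes are given as log2 fold changes of Gata2cKO over control on the log2(TPM + 1) scale, from limma fitted to all 12300 genes that reached 1 TPM in at least 3 of the 6 libraries, with p-values adjusted over all of them by the Benjamini-Hochberg method and a threshold of 0.05. All 92 members passed that filter. The libraries listed 12122 to 12301 genes at 1 TPM or more, and read depth is unknown because TPM does not keep it. Gata2 itself was at 384, 464 and 546 TPM in the controls and 431, 529.8 and 416 TPM in Gata2cKO. The groups overlapped, and since the labels do not say which part of the gene is floxed, a value over the whole gene does not check them. Summed markers of mesenchyme lay between 7850 and 9654 TPM in the controls and between 8535 and 10674 TPM in Gata2cKO, and markers of duct and tubule epithelium between 895 and 1009 TPM and between 1148 and 1178 TPM. Control replicate 1 stood apart: 11 of 81 nuclear members (13.6%) were more than 0.5 log2 units below the mean of the other controls there, against 5.54% of all genes tested, and 9 of 11 mitochondrial members (81.8%) were more than 0.5 log2 units above it, against 4.42%. Over 12228 tested genes this deviation had a correlation of -0.33 with the GC percent of the transcript. The correlation was -0.22 over the nuclear members and -0.26 over the mitochondrial ones, and its cause was not tested. Results that rest on control replicate 1 are given with and without it.

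Some mitochondrial genes have near-identical copies in the nuclear genome, and these copies bear on what a TPM value of such a gene holds. In GENCODE release 21 (GRCm38), mt-Co2, mt-Co3 and mt-Atp6 matched the nuclear pseudogenes Gm28661, Gm28437 and Gm10925 on chromosome 1 with 0 mismatches over 681, 783 and 678 bases. mt-Nd3 matched Gm28438 with 1 mismatch in 345 bases, and 63.6% of mt-Nd4 lay in Gm28439 with 0 mismatches. mt-Co1 matched Gm13340 on chromosome 2 with 37 mismatches in 1545 bases. mt-Cytb, mt-Nd1, mt-Nd2, mt-Nd5 and mt-Nd6 had no such copy. The first bases of 2 pairs are printed 5′ to 3′ in the sense of the gene, because reads from one pair can be told apart by many letters along the gene and those from the other by 1. Capitals mark the mismatches, 3 in the first pair at chrM:5328-5417 (plus strand) and chr2:22589558-22589647 (minus strand) and 1 in the second at chrM:9459-9548 (plus strand) and chr1:24613030-24613119 (minus strand).
mt-Co1: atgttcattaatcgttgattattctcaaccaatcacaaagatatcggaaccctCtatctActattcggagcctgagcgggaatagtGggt
Gm13340: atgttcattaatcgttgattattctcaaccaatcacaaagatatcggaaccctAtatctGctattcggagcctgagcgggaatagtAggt
mt-Nd3: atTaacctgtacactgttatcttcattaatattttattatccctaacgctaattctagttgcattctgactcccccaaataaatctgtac
Gm28438: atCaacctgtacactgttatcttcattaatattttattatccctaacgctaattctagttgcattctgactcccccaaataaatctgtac

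Of the sequence of 4 members, 99.1% to 99.9% lies in copies that are at least 99.5% identical, against 63.6% for mt-Nd4 and 31.3% for mt-Co1, whose full-length copy differs more. The 4 were the lowest of the 11: the control means of mt-Co2, mt-Co3, mt-Atp6 and mt-Nd3 were 176, 141, 103 and 36.7 TPM. The other 7 had control means between 9175 TPM (mt-Nd6) and 52568 TPM (mt-Co1). None of the copies named above has a row among those used here. mt-Co1 has 2 copies, and the one not named was not looked up. The sources used here do not say how reads with several equal matches were counted, so the levels of these 4 genes are uncertain. Those of mt-Nd4 and mt-Co1 are uncertain in part, as are sums and ranks over the 11 genes.

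Mitochondrial transcripts were highest in control replicate 1 and did not separate the groups. The 11 genes together held 21.9, 16.3 and 14.2% of TPM in control replicates 1 to 3 and 15.2, 13.2 and 13.7% in Gata2cKO replicates 1 to 3, means of 17.5% ± 3.95 and 14.0% ± 1.04 (SD, n = 3 each). The ratio of the means was 0.80, and 0.917 when control replicate 1 was left out. Against the summed nuclear members, the mitochondrial genes stood at 14.6 ± 4.47 times in the controls and 10.6 ± 0.857 times in Gata2cKO (SD, n = 3 each). Controls 2 and 3, at 12.9 and 11.1, bracketed Gata2cKO replicate 1 at 11.5. These sums are descriptions, with no test, and reads shared with nuclear copies leave them uncertain.

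**Figure D1:**
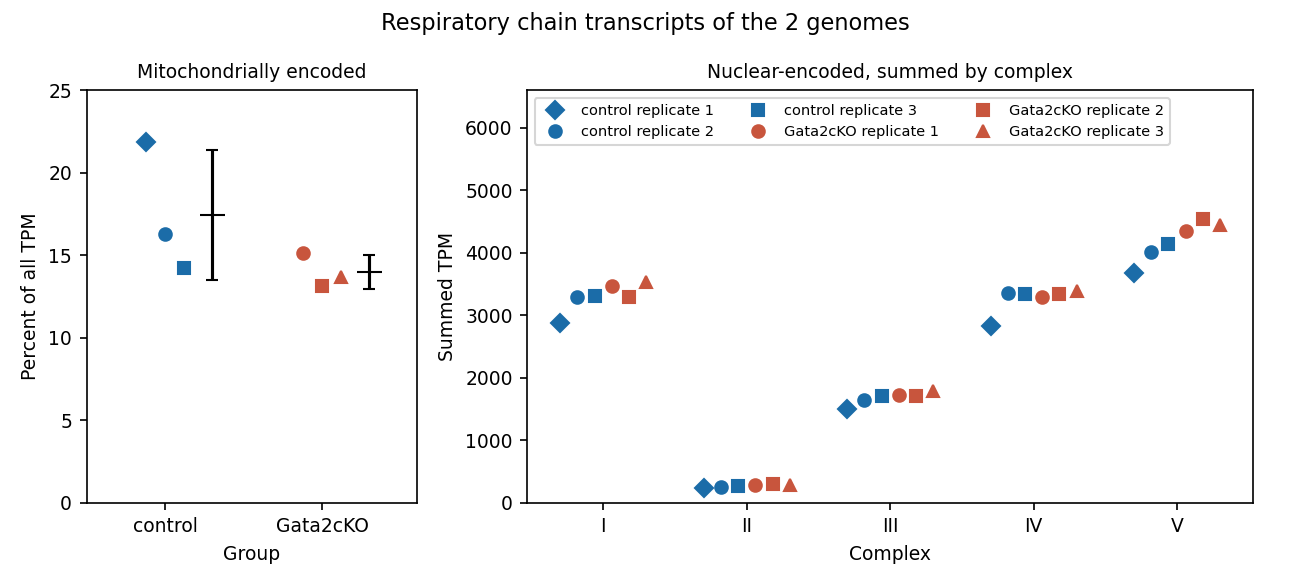
Left, share of all TPM held by the 11 mitochondrial genes in each library, with the mean and SD of each group (n = 3). Right, summed TPM of the nuclear members of complexes I to V in each library. Control replicate 1 (diamond) is the highest library on the left, at 21.9%, and the lowest for each complex on the right.

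Of the 11 mitochondrial genes, 0 passed the test in either direction, also with control replicate 1 left out, and 0 had an unadjusted p under 0.05. In the same fit 5.73% of all genes tested were called higher and 1.74% lower in Gata2cKO, and 3365 of the 12300 had an unadjusted p under 0.05. Negative log2 fold changes were found for 9 of the 11 and positive ones for 2, with a median of -0.22, beside a median of 0.05 over all genes tested. Without control replicate 1, 7 were negative and 4 positive, with a median of -0.10. mt-Nd2, a membrane subunit of complex I, had the most negative value. It was at 24051, 15623 and 12633 TPM in the controls and 12954, 11459 and 11968 TPM in Gata2cKO. Only control replicate 1 lay far above the rest, and control replicate 3 lay below Gata2cKO replicate 1. The log2 fold change was -0.47 (SE 0.22, limma test, adjusted p = 0.218), and -0.21 (limma test, adjusted p = 0.212) without control replicate 1. The other complex I genes of the same strand also had negative values, mt-Nd3 excepted: mt-Nd4 was at 19875, 12348 and 10518 TPM in the controls and 11210.4, 9589 and 9912 TPM in Gata2cKO, with a log2 fold change of -0.43 that became -0.16 without control replicate 1. mt-Nd1 was at 41557, 28543 and 24831 TPM in the controls and 26214, 22632 and 24672 TPM in Gata2cKO, with log2 fold changes of -0.34 and -0.12. For mt-Nd5 the levels were 14766, 11024 and 9869 TPM in the controls and 10402, 8891 and 8422 TPM in Gata2cKO, with log2 fold changes of -0.35 and -0.18. In all of these genes control replicate 1 was the highest library and the groups overlapped.

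mt-Nd6 is the 1 member transcribed from the other strand of the mitochondrial genome (chrM:13552-14070, minus strand), and its annotation overlaps the end of mt-Nd5. It was at 10684, 9106 and 7736 TPM in the controls and 8699, 7448 and 7424 TPM in Gata2cKO, with log2 fold changes of -0.22 with all libraries and -0.10 without control replicate 1. The sources used here do not say whether the libraries keep strand, so reads of mt-Nd6 and antisense RNA of the opposite strand cannot be told apart. mt-Cytb, the only mitochondrial subunit of complex III, was at 46149, 34476 and 29888 TPM in the controls and 32504, 28244 and 27901 TPM in Gata2cKO, with log2 fold changes of -0.30 and -0.12. mt-Co1, the catalytic core of complex IV, had the highest values of all members, at 60223, 51324 and 46158 TPM in the controls and 49036, 42894 and 45623 TPM in Gata2cKO. Its log2 fold changes were -0.19 and -0.09, and control replicate 1 was the highest library here too. The ratio of mt-Co1 to mt-Nd2 was 2.50, 3.29 and 3.65 in the controls and 3.79, 3.74 and 3.81 in Gata2cKO. The 3 Gata2cKO libraries lay above all 3 controls, with control replicate 1 the farthest off. The 2 genes were chosen for this ratio after their values were seen.

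The 4 genes that lie almost whole in copies of at least 99.5% identity differed in order from library to library. mt-Atp6, a subunit of the ATP synthase membrane sector, was at 185, 64.3 and 60.1 TPM in the controls and 100.2, 43.5 and 107 TPM in Gata2cKO. mt-Co2 and mt-Co3, the other core subunits of complex IV, were at 242, 153 and 132 and at 223, 107 and 93.3 TPM in the controls, and at 173, 140.1 and 239.7 and at 135, 83.8 and 139 TPM in Gata2cKO. mt-Nd3 was at 56.4, 34.3 and 19.4 TPM in the controls and 37.4, 24.5 and 52.7 TPM in Gata2cKO. In Gata2cKO, replicate 3 was the highest library for all 4 genes and replicate 2 the lowest, an order not seen in the 7 abundant genes. The log2 fold changes of mt-Atp6 and mt-Co3 were -0.20 and -0.17 with all libraries and 0.32 and 0.22 without control replicate 1, so their direction depends on that library.

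**Figure D2:**
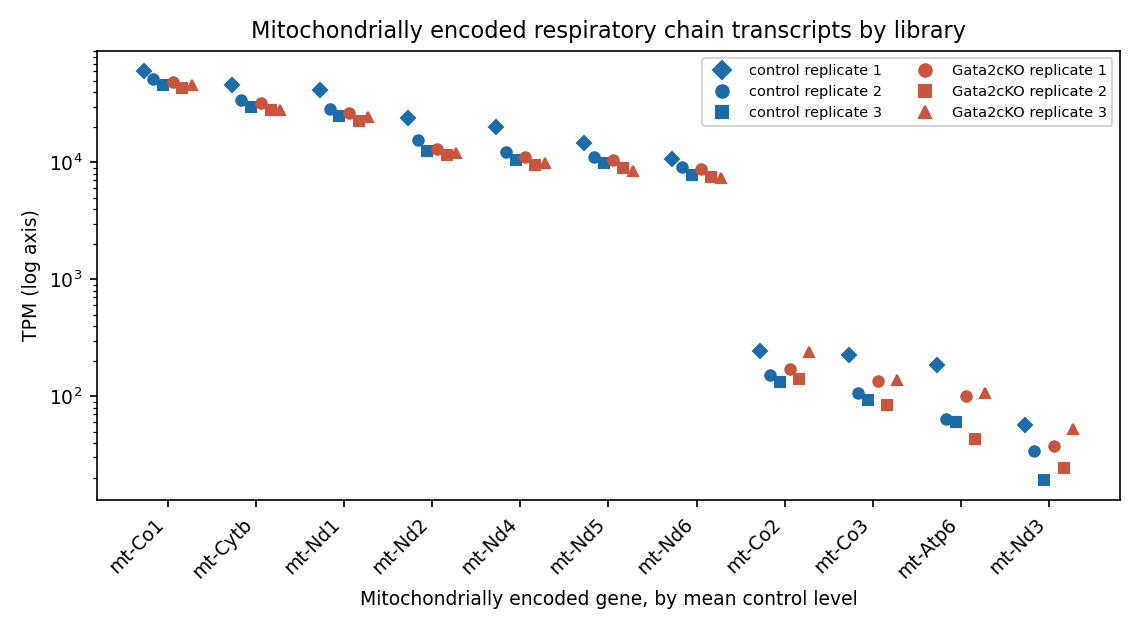
TPM of the 11 mitochondrial genes in each of the 6 libraries on a log axis, controls in blue and Gata2cKO in red, ordered by control mean. Control replicate 1 (diamond) is the highest library for every gene, and the 4 genes that lie almost whole in nuclear copies of at least 99.5% identity stand on the right, at 242 TPM or less.

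The authors' deposited table, for which no source used here states the scaling, has adjusted p-values under 0.05 for mt-Nd1, mt-Nd5 and mt-Cytb, all lower in Gata2cKO, with log2 fold changes of -0.43, -0.42 and -0.38. Of the 14366 genes it lists, 6.69% were called higher and 6.58% lower. The adjusted p-values from limma of the same 3 genes here were 0.31, 0.23 and 0.32, and without control replicate 1 they were 0.419, 0.281 and 0.44.

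Among the nuclear members, 4 of 81 (4.94%) rose in Gata2cKO and 0 fell, against the 5.73% of all genes tested called higher and 1.74% called lower: the share that rose is near the background. The 4 were Atp5b and Atp5g2 of complex V, Sdhd of complex II and Ndufb9 of complex I. The other 77 did not pass the test. The median log2 fold change of the nuclear members was 0.07, with 56 positive and 25 negative, beside 0.05 over all genes tested, of which 59.5% were positive. With TPM rescaled to a total without mitochondrial genes the nuclear median was 0.02, with 44 positive and 37 negative values, beside -0.002 over all genes. That scaling and median-of-ratios scaling moved the counts over all genes from 705 higher and 214 lower to 432 and 281, and to 502 and 397, respectively. Without control replicate 1, 7 of the nuclear members rose and 0 fell, and the same 4 genes were among them. The background in that fit was 9.01% higher and 3.5% lower. Each of the 4 lost its call when any 1 of the other 5 libraries was left out: over those removals the count of nuclear members called was between 0 and 1, and the 1 was Cox5a. The authors' deposited table calls the same 4 genes higher, and it calls 3 nuclear members lower (Atp5h, Cox6c and Ndufc1). Its shares over 14366 genes were 6.69% higher and 6.58% lower.

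**Figure D3:**
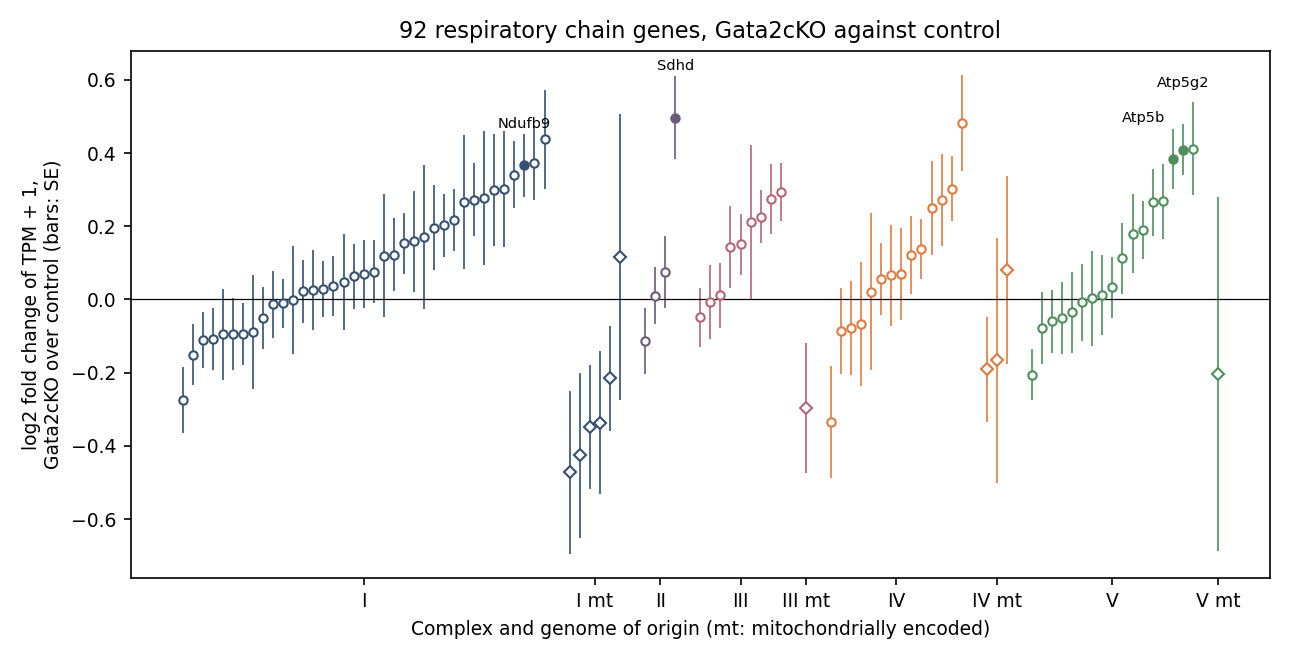
Log2 fold change of TPM + 1, Gata2cKO over control, for each of the 92 members, ordered by value within complex and genome (circles nuclear, diamonds mitochondrial), with bars of 1 SE from limma. The 4 filled points, Ndufb9, Sdhd, Atp5b and Atp5g2, are the genes past the threshold, and 9 of the 11 diamonds lie below 0.

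In complex V, the catalytic beta subunit and 1 of the 3 genes for the membrane c ring rose. Atp5b (chr10:128083273-128090391, plus strand), which encodes the beta subunit that makes ATP, was at 699, 757 and 777 TPM in the controls and 940.1, 1006 and 968 TPM in Gata2cKO. All 3 Gata2cKO libraries lay above all 3 controls. The means were 744 ± 40.3 and 971 ± 33.1 TPM (SD, n = 3 each), 1.30-fold, with a log2 fold change of 0.38 (SE 0.08, limma test, adjusted p = 0.0361, and 0.0229 without control replicate 1). The call was lost with median-of-ratios scaling (limma test, adjusted p = 0.0543) and with the replicate number as a block in the fit (0.0584). It was the most abundant nuclear member. Atp5g2 (chr15:102662864-102672352, minus strand), 1 of 3 genes that encode the same mature c subunit with different import signals, was at 90.0, 89.0 and 88.5 TPM in the controls and 117, 117 and 122 TPM in Gata2cKO. The groups did not overlap, and the controls were close together, at 89.2 ± 0.735 TPM (SD, n = 3). The log2 fold change was 0.41 (SE 0.07, limma test, adjusted p = 0.0184, and 0.0136 without control replicate 1). The sister genes did not pass. Atp5g1 was at 133, 128 and 136 TPM in the controls and 148, 131 and 129 TPM in Gata2cKO and Atp5g3 at 539, 653 and 666 TPM in the controls and 656, 752 and 690.4 TPM in Gata2cKO, with log2 fold changes of 0.03 and 0.18 (limma test, adjusted p = 0.828 and 0.325), and Atp5g1 turned negative under 3 other scalings. Of the summed TPM of the 3 genes, Atp5g2 made up 10.7% ± 0.999 in the controls and 12.5% ± 0.687 in Gata2cKO (SD, n = 3 each), and Atp5g3 made up 73.5% and 73.3%. The shares of Atp5g2 overlapped, because Gata2cKO replicate 2 at 11.7% lay below control replicate 1 at 11.8%.

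Of the 17 nuclear members of complex V, 2 rose (11.8%, beside 5.73% of all genes tested), 0 fell (beside 1.74%) and 15 did not pass. Their summed TPM was 3679, 4013 and 4149 in the controls and 4344, 4550.5 and 4443 in Gata2cKO, a ratio of means of 1.13, and 1.09 without control replicate 1. Atp5a1, the alpha subunit that pairs with beta, was at 555, 639.9 and 698 TPM in the controls and 724, 783 and 765 TPM in Gata2cKO; it lay higher in all Gata2cKO libraries (limma test, adjusted p = 0.144). Atp5h, a subunit of the peripheral stalk, ran the other way, at 344, 339.6 and 334 TPM in the controls and 301, 291 and 290.1 TPM in Gata2cKO. Its groups did not overlap, but the limma test did not call it (log2 fold change -0.21, SE 0.07, adjusted p = 0.114), whereas the authors' deposited table does, with a log2 fold change of -0.27. A copy of 485 bases at 99.0% identity, Gm10250, covers 71.1% of its transcript. Atp5o, the stalk subunit that confers oligomycin sensitivity, was the lowest member of the complex at 4.85 ± 0.245 TPM in the controls (SD, n = 3). Release 21 carries a second gene entry under the same symbol on the same strand, and 47.9% of the exonic bases of the entry measured here are shared with other genes, so its level is uncertain. Atp5a1, Atp5h and Atp5sl are among the genes chosen for mention after their values or annotation were seen.

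In complex II, which feeds electrons from succinate and is also an enzyme of the tricarboxylic acid cycle, 1 of 4 subunits rose. Among all genes tested 5.73% were called higher, and 4 genes are too few to compare with that share. Sdhd (chr9:50596357-50603812, minus strand), a membrane anchor with a haem ligand, was at 73.0, 94.0 and 96.1 TPM in the controls and 121, 125 and 124 TPM in Gata2cKO. All Gata2cKO libraries lay above all controls, and control replicate 1 was the lowest. The means were 87.7 ± 12.8 and 123 ± 2.18 TPM (SD, n = 3 each), with a log2 fold change of 0.50 (SE 0.11, limma test, adjusted p = 0.0421). Without control replicate 1 it was 0.37 (limma test, adjusted p = 0.0183). The call was lost with median-of-ratios scaling (limma test, adjusted p = 0.0549) and with no filter on low values (0.0504). The other anchor, Sdhc, was at 49.9, 50.3 and 54.9 TPM in the controls and 43.1, 50.5 and 49.8 TPM in Gata2cKO, with a log2 fold change of -0.11. The flavoprotein Sdha was at 52.5, 62.1 and 63.2 TPM in the controls and 62.2, 66.5 and 58.5 TPM in Gata2cKO and the iron-sulfur subunit Sdhb at 56.1, 50.5 and 56.0 TPM in the controls and 54.4, 52.8 and 56.5 TPM in Gata2cKO. Their log2 fold changes were 0.08 and 0.01, within their standard errors of 0.10 and 0.08, and both changed sign under other settings. The control means of the 4 subunits lay within 1.70-fold of each other. This range cannot be set against those of the other complexes, which have more members.

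In complex I, 1 of 37 nuclear members rose and 0 fell. Ndufb9 (chr15:58933756-58939488, plus strand), an accessory subunit of the membrane arm, was at 79.8, 84.7 and 89.9 TPM in the controls and 119, 105 and 105 TPM in Gata2cKO, with no overlap. The log2 fold change was 0.37 (SE 0.09, limma test, adjusted p = 0.0455, and 0.0464 without control replicate 1). Its call was lost when the total was taken without mitochondrial genes (limma test, adjusted p = 0.0643) and with median-of-ratios and upper-quartile scaling (0.0743 and 0.057). The call of Ndufb9 was also lost without the mean-variance trend (limma test, adjusted p = 0.052) and with the replicate number as a block (0.0775). Of its exonic bases, 19.5% are shared with Gm49356 on the same strand. The core subunits Ndufv1, Ndufv2, Ndufs1, Ndufs3, Ndufs7 and Ndufs8, all of the matrix arm, did not pass. The extremes of level were Ndufb11, at 347, 420.5 and 384 TPM in the controls and 458, 435 and 497 TPM in Gata2cKO, and Ndufs4, a subunit late in assembly, at 5.40, 4.88 and 4.92 TPM in the controls and 5.83, 4.90 and 5.40 TPM in Gata2cKO. Control means of the 37 genes spanned a ratio of 75.7. Ndufc1, a small membrane subunit, was at 87.6, 77.0 and 73.8 TPM in the controls and 68.4, 65.5 and 62.4 TPM in Gata2cKO and Ndufb7, a subunit that faces the intermembrane space, at 96.6, 105 and 112 TPM in the controls and 96.2, 90.8 and 95.4 TPM in Gata2cKO. Both groups of libraries were apart, with Gata2cKO lower, and neither gene passed (limma test, adjusted p = 0.102 and 0.283). The authors' deposited table calls Ndufc1 lower, with a log2 fold change of -0.34.

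**Figure D4:**
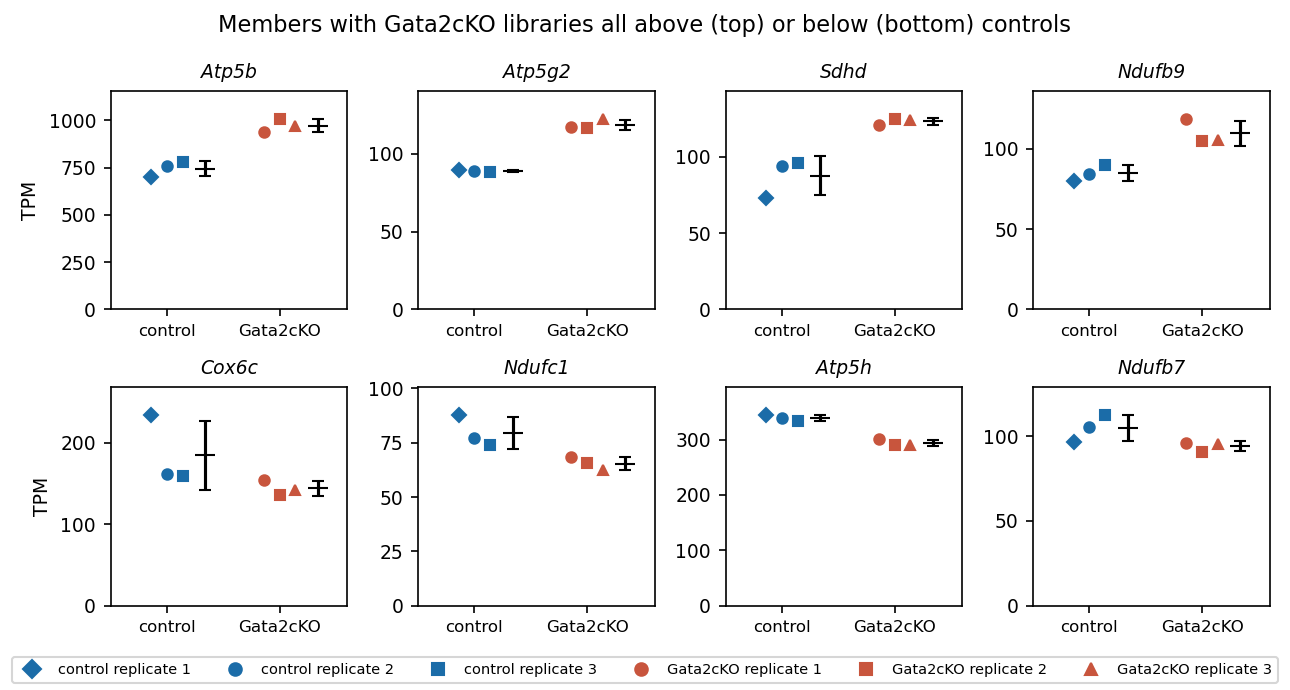
TPM in each library (points) with the group mean and SD (bars, n = 3) for the 4 members that rose, in the top row, and for the 4 whose Gata2cKO libraries lay below all controls but which did not pass the test, in the bottom row. Axes start at 0, and control replicate 1 is the diamond, well above the other libraries for Cox6c.

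Ndufa4 and Ndufa4l2 carry complex I names, but the Ndufa4 product is found in complex IV and Ndufa4l2 is its paralog known from the response to low oxygen. Ndufa4 was at 132, 122 and 113 TPM in the controls and 161, 143 and 162 TPM in Gata2cKO and Ndufa4l2 at 27.2, 38.5 and 37.6 TPM in the controls and 43.8, 46.9 and 49.0 TPM in Gata2cKO. In both genes all Gata2cKO libraries lay above all controls. Their log2 fold changes were 0.34 (SE 0.09, limma test, adjusted p = 0.0655) and 0.44 (SE 0.14, limma test, adjusted p = 0.0893). Without control replicate 1, Ndufa4 passed (limma test, adjusted p = 0.0288) and Ndufa4l2 did not (0.0602). Ndufa4 was 3.68 ± 1.02 times as abundant as Ndufa4l2 in the controls and 3.35 ± 0.319 times in Gata2cKO (SD, n = 3 each), with overlapping values.

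In complex III, 0 of 9 nuclear members passed (3 had an unadjusted p under 0.05, beside 3365 of all 12300 genes tested). The nearest to the threshold was Uqcrc2, a core protein of the matrix side and the lowest nuclear member of the complex, at 40.1, 37.8 and 38.4 TPM in the controls and 51.2, 45.2 and 47.2 TPM in Gata2cKO. The groups did not overlap (log2 fold change 0.29, SE 0.08, limma test, adjusted p = 0.0651), and it passed without control replicate 1 (limma test, adjusted p = 0.0457). A stretch of 19.7% of its exonic bases lies opposite Pdzd9. Cyc1, cytochrome c1, was the most abundant at 428, 481 and 521 TPM in the controls and 444, 510.5 and 467 TPM in Gata2cKO, with a log2 fold change of -0.01 (SE 0.10) and overlapping groups. Uqcrfs1, the Rieske iron-sulfur protein, was at 142, 149.7 and 153 TPM in the controls and 187, 159 and 194 TPM in Gata2cKO, higher in all Gata2cKO libraries (limma test, adjusted p = 0.116).

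In complex IV, 0 of 14 nuclear members passed in the fit with all libraries. Of the 14, 2 had an unadjusted p under 0.05, beside 3365 of all 12300 genes tested. Several of its subunits exist as alternative isoforms, and the tissue used mainly the widely expressed forms, with 1 exception. Cox4i1 was at 252 ± 35.0 TPM in the controls and 264 ± 27.5 TPM in Gata2cKO, and the lung and low-oxygen form Cox4i2 at 5.49 ± 0.933 and 5.07 ± 0.213 TPM (SD, n = 3 each). Cox7a2 was at 179.9 ± 33.3 and 169 ± 6.56 TPM, and the heart and muscle form Cox7a1, the lowest member of all 92, at 3.05 ± 0.452 and 3.82 ± 0.658 TPM. None of these 4 genes passed the test. The exception was subunit 6B. Cox6b2, known as the testis form, was at 151, 232 and 224 TPM in the controls and 173, 212 and 185 TPM in Gata2cKO, and the widely expressed Cox6b1 at 90.8, 81.5 and 81.1 TPM in the controls and 108, 95.9 and 109.7 TPM in Gata2cKO. Cox6b2 was the more abundant in all 6 libraries, by 1.66, 2.84 and 2.76 times in the controls and 1.60, 2.22 and 1.69 times in Gata2cKO. Neither gene shares exonic bases with another annotated gene or has a near-identical copy. Cox6b1 lay higher in all Gata2cKO libraries (log2 fold change 0.30, SE 0.09, limma test, adjusted p = 0.079), and passed without control replicate 1 (limma test, adjusted p = 0.0357). Cox6b2 did not pass in either fit (limma test, adjusted p = 0.827 and 0.11).

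Cox8a, the most abundant nuclear member of complex IV, was at 468, 620.1 and 615 TPM in the controls and 720.2, 684 and 638 TPM in Gata2cKO, and Cox6a1 at 364, 495 and 503 TPM in the controls and 429, 499.9 and 484 TPM in Gata2cKO. Control replicate 1 was the lowest library for both, and neither passed (limma test, adjusted p = 0.209 and 0.796). Cox7a2l, a factor that joins complexes III and IV into supercomplexes, was at 150.4 ± 9.99 and 157 ± 15.0 TPM (SD, n = 3 each), with a log2 fold change of 0.06 that was slightly negative under 2 other scalings. Cox6c was at 234, 162 and 159 TPM in the controls and 154, 136 and 143 TPM in Gata2cKO. Gata2cKO lay below all controls, control replicate 1 was far above the rest, and the gene was not called (log2 fold change -0.33, limma test, adjusted p = 0.203, and -0.15 with adjusted p = 0.221 without that library). The authors' deposited table calls it lower, with a log2 fold change of -0.42. Cox5a, which binds Cox4, was at 11.8, 12.7 and 16.3 TPM in the controls and 17.4, 21.2 and 19.2 TPM in Gata2cKO, the largest positive log2 fold change of the complex at 0.48 (SE 0.13, limma test, adjusted p = 0.0674). Cox6c and Cox5a were chosen for mention after their values were seen, as were Uqcrfs1, Ndufc1 and Ndufb7.

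A combination chosen after seeing the data left out control replicate 1 and took the total without mitochondrial genes. In it, 5 of 81 nuclear members rose (Atp5b, Atp5g2, Cox6b1, Ndufa4 and Sdhd) and 2 fell (Cox5b and Ndufa8). Over all 12300 genes tested, 1034 were called higher and 594 lower in that combination. Cox5b, a zinc-binding subunit of complex IV, was at 283, 509 and 501 TPM in the controls and 401, 449 and 420.4 TPM in Gata2cKO, so control replicate 1 alone was below the Gata2cKO libraries. Ndufa8, a subunit of complex I that faces the intermembrane space, was at 29.9, 42.3 and 47.0 TPM in the controls and 35.1, 37.3 and 37.7 TPM in Gata2cKO, with the same pattern. Their log2 fold changes in the main scaling were 0.02 and -0.09 with all libraries and -0.26 and -0.28 without control replicate 1. The 11 nuclear members that stood more than 0.5 log2 units low in that library were Cox5b, Cox6b2, Uqcr11, Ndufa1, Ndufa2, Ndufa8, Ndufb3, Ndufb6, Ndufb8, Ndufb10 and Ndufs6, and Cox6c was the 1 that stood high.

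**Figure D5:**
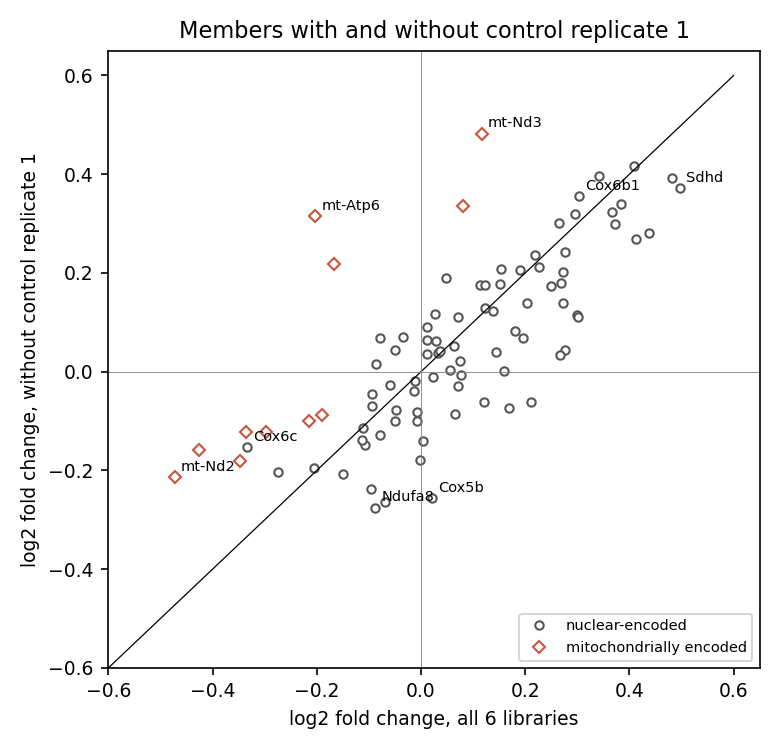
Log2 fold change of each member with all 6 libraries (horizontal) and without control replicate 1 (vertical), with the line of equality. The mitochondrial genes (diamonds) all lie above the line, and mt-Atp6 and mt-Co3 change sign.

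Counted by overlap, 24 nuclear members had all 3 Gata2cKO libraries above all 3 controls and 4 had them below (Atp5h, Cox6c, Ndufb7 and Ndufc1). Over all genes tested the shares were 23.4% higher and 10.5% lower, so the 29.6% and 4.94% of the nuclear members lay on either side of these. None of the 11 mitochondrial members separated the groups. The summed nuclear members came to 11123, 12573 and 12777 TPM in the controls and 13126, 13189.6 and 13429 TPM in Gata2cKO, a ratio of means of 1.09, and 1.05 without control replicate 1. By complex the ratio was 1.08 for complex I, 1.14 for II, 1.08 for III and 1.05 for IV. Without control replicate 1 these ratios were 1.04, 1.09, 1.04 and 0.998, so the direction for complex IV depends on that library. As a share of the TPM that is not mitochondrial, the nuclear members held 1.43, 1.50 and 1.49% in the controls and 1.55, 1.52 and 1.56% in Gata2cKO.

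Many nuclear respiratory genes are known targets of NRF1, of ETS-family factors such as GABPA, and of YY1. Promoter windows from 250 bases before to 50 bases after the start (RefSeq, GRCm38.p6) were matched for 64 of the 81 nuclear members and searched on both strands. The 8 letters GCGCATGC of the NRF1 site were found in 10 of 64 (15.6%), against 3.05% of 27025 genes with a window and 6.01% of the 9374 tested genes with one. CCGGAAGT (ETS) was found in 5 (7.81%, against 4.31% and 9.01%) and AAGATGGCG (YY1) in 7 (10.9%, against 1.64% and 3.61%). In all, 21 members held at least 1 of the 3. Of the 4 genes that rose, Atp5g2 held NRF1 letters, Atp5b and Sdhd held none of the 3 motifs, and Ndufb9 has no entry. A match is a description of letters and not of binding. Printed 5′ to 3′ along each gene, to show the start region of the genes that rose, are the part of the window outside annotated exons of Atp5b (chr10:128083057-128083272, plus strand) and of Sdhd (chr9:50603813-50603909, minus strand, the gap to a neighbour on the other strand), and the 30 bases of Atp5g2 around its match (chr15:102671070-102671099, minus strand). Capitals mark the NRF1 letters, which match on both strands in overlapping positions from 42 to 33 bases before the start.
Atp5g2: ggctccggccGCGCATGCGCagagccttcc
Atp5b: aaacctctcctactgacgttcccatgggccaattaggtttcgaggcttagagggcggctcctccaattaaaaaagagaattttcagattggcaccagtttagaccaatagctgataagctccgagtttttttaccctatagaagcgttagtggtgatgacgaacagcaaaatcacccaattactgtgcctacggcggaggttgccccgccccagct
Sdhd: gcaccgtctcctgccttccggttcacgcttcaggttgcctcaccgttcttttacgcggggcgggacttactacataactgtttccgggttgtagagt

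The factors named above were measured in the same libraries, and 0 of the 3 passed the test. Nrf1 was at 6.04, 6.10 and 6.26 TPM in the controls and 4.87, 5.41 and 4.86 TPM in Gata2cKO, with Gata2cKO below the controls (log2 fold change -0.24, limma test, adjusted p = 0.113). Gabpa was at 27.4 ± 1.83 and 32.0 ± 1.84 TPM and Yy1 at 53.6 ± 1.04 and 49.1 ± 5.95 TPM (SD, n = 3 each; limma test, adjusted p = 0.151 and 0.431). Tfam, which packages and transcribes mitochondrial DNA, was at 41.3, 40.3 and 37.5 TPM in the controls and 39.9, 39.6 and 40.1 TPM in Gata2cKO (log2 fold change 0.01). Ppargc1a and Ppargc1b, coactivators of mitochondrial biogenesis, had control means of 1.01 and 0.421 TPM and did not reach the filter. Of the list of biogenesis regulators, 8 of 11 were tested, 1 rose and 0 fell, beside 5.73% of all genes tested called higher and 1.74% lower. The 1 that rose was Nfe2l2, known for the response to oxidants, at 15.8, 16.9 and 15.6 TPM in the controls and 24.3, 22.5 and 20.6 TPM in Gata2cKO (log2 fold change 0.45, SE 0.09, limma test, adjusted p = 0.0284, and 0.0545 with the total taken without mitochondrial genes).

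Across the lists of other mitochondrial genes and of biogenesis regulators, 6 of 218 tested genes (2.75%) rose, under the 5.73% of all genes. Of the 218, 0 fell, beside 1.74% of all genes. The counts of single lists below stand beside the same shares. The 6 that rose were Cycs, Slc25a5, Suclg1, Adck3, Mrps31 and Nfe2l2. Cycs, the cytochrome c that carries electrons from complex III to complex IV, was at 111, 104 and 105 TPM in the controls and 140.4, 135 and 132 TPM in Gata2cKO, with no overlap (log2 fold change 0.35, SE 0.07, limma test, adjusted p = 0.0329). Slc25a5, an exchanger of ADP and ATP across the inner membrane, was at 382, 364 and 383 TPM in the controls and 509.8, 476 and 525 TPM in Gata2cKO, also with no overlap (log2 fold change 0.42, SE 0.08, limma test, adjusted p = 0.025). Its paralog Slc25a4 was at 578, 839 and 861 TPM in the controls and 869.8, 854 and 862 TPM in Gata2cKO, with control replicate 1 the low library, and did not pass (limma test, adjusted p = 0.424). Suclg1, a subunit of succinyl-CoA ligase in the tricarboxylic acid cycle, was at 19.3, 20.2 and 21.1 TPM in the controls and 27.5, 24.7 and 26.8 TPM in Gata2cKO (limma test, adjusted p = 0.0378), and was the 1 called of 17 genes of the cycle. Each of the 6 was called in 1 of the 6 removals of a library, that of control replicate 1. Cycs, Suclg1, Adck3 and Mrps31 lost their calls under all 3 other scalings (limma test, adjusted p between 0.0556 and 0.0808 for Cycs). They also lost them with the replicate number as a block (limma test, adjusted p = 0.0609, 0.0670, 0.0528 and 0.0669). Slc25a5 lost its call with median-of-ratios scaling (limma test, adjusted p = 0.0509), and Mrps31 also lost it without the filter on low values (0.0632). Of the assembly factors for complexes I to V, 0 of 45 tested genes passed. Of the 45, 4 had an unadjusted p under 0.05, beside 3365 of all 12300 genes tested. Of the mitochondrial ribosomal proteins, which translate the 11 mitochondrial members, 1 of 76 rose (Mrps31) and 0 fell. Adck3, a coenzyme Q synthesis gene, was the 1 called of 11 in its list, at 1.12, 0.976 and 1.05 TPM in the controls and 2.11, 1.58 and 1.74 TPM in Gata2cKO. Lists for mitochondrial DNA replication and transcription (16 tested), for mitochondrial RNA processing (15) and for cristae (10) had 0 called.

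Glycolysis and the response to low oxygen were listed for comparison. Of 15 glycolytic genes 1 rose and 0 fell, beside 5.73% of all genes tested called higher and 1.74% lower. The 1 was Tpi1, at 1063, 1110.0 and 1120.4 TPM in the controls and 1554, 1299.6 and 1492 TPM in Gata2cKO (log2 fold change 0.40, SE 0.10, limma test, adjusted p = 0.0484). The call of Tpi1 was lost under the 3 other scalings (limma test, adjusted p between 0.0736 and 0.0996) and without the filter on low values (0.0612). It was also lost with the replicate number as a block (limma test, adjusted p = 0.0714) and in 5 of 6 removals of a library. Of 12 genes of the low-oxygen response 2 rose and 0 fell, beside 5.73% of all genes tested called higher and 1.74% lower. Without control replicate 1, 2 rose and 1 fell, beside 9.01% and 3.5%. Ndrg1 was at 5.55, 5.88 and 5.62 TPM in the controls and 10.3, 9.64 and 9.16 TPM in Gata2cKO (log2 fold change 0.68, SE 0.08, limma test, adjusted p = 0.00971) and was called in all 6 removals of a library. Egln3, a prolyl hydroxylase of the oxygen sensor, was at 6.22, 6.86 and 6.89 TPM in the controls and 10.2, 11.7 and 9.98 TPM in Gata2cKO (log2 fold change 0.60, SE 0.09, limma test, adjusted p = 0.015) and was called in 5 of 6. Vegfa, Slc2a1, Pdk1, Ldha and Bnip3 of the same list did not pass.

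Markers of some other cell types moved with the groups. The counts stand beside 5.73% of all genes tested called higher and 1.74% called lower. Summed mast cell markers (6 of 8 with a row) were at 101 to 142 TPM in the controls and 277 to 302 TPM in Gata2cKO, with 3 of 6 called higher. Endothelial markers (8 of 8) were at 134 to 156 and 191 to 206 TPM, with 3 of 8 called higher, and epithelial markers (12 of 12) had 2 of 11 tested called higher. Macrophage markers (8 of 8) had 1 of 8 called higher, with overlapping sums of 334 to 406 and 401 to 452 TPM. With all libraries, markers of neurons and Schwann cells (4 tested), Leydig and adrenal cells (1) and germ and Sertoli cells (5) had 0 called. Smooth muscle markers (8 of 8) were at 855 to 951 and 632 to 676 TPM, with 3 of 7 tested called lower, and mesenchyme markers had 1 of 12 called higher and 3 lower. The part of these in the levels of the respiratory chain genes was not tested. Erythroid markers (10 of 13) summed to 18294 TPM in control replicate 1, to 6879 and 7830 TPM in controls 2 and 3, and to between 10539 and 13841 TPM in Gata2cKO. Of the 9 tested, 1 was called higher with all libraries (Slc4a1) and 5 without control replicate 1, so in the fit without that library these markers moved with the groups. The library with the most mitochondrial RNA also had the most globin RNA, and the part of erythroid RNA in the other values was not tested. Markers of the tissues richest in mitochondria were low: striated muscle markers (10 of 16) summed to 183 to 218 and 187 to 230 TPM, nearly all of it from Des, which other cells also express, and brown fat markers (2 of 8) to 2.62 to 9.25 and 4.84 to 14.3 TPM.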

How the data were processed

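RNA-seq of 6 libraries, 3 per group, was used: poly-T captured RNA, cDNA made with random hexamers, per the labels' protocols. The build GRCm38 and the tools STAR 2.7.11a, DESeq and DESeq2 come without roles, per the submitters' processing notes. The deposited table holds 1 value per gene and library. Its unit is given in no header and was taken to be TPM made by the authors, since each library summed to between 997351 and 998844. The authors' deposited log2 fold changes and their p-values stand in the same table. TPM keeps no depth, so no counting interval is given and the spread of replicates is the error.

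Columns were assigned through the library names in the labels. Genes with at least 1 TPM in at least 3 of 6 libraries were kept (12300 of 14366). The group effect was estimated by limma 3.58.1 (R 4.3.3) from log2(TPM + 1), with variances that follow the mean, two-sided, with Benjamini-Hochberg adjustment over all 12300 genes and a threshold of 0.05. Fold changes on this scale are understated for low genes. The script was tested on simulated data. Sums and ratios over members carry no test.

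Members and the 30 gene lists were chosen with earlier results of these data known. Named genes are all mitochondrial members, nuclear members past the threshold, the highest and lowest nuclear member of each complex, alternative isoforms, complex II, and up to 3 genes of each list of the wider pathway; others were chosen after their values were seen, among them Nrf1, Gabpa, Yy1, Tfam, Ppargc1a, Ppargc1b and Slc25a4. Annotation is GENCODE release 21 (GRCm38), matched for all 92 members. Copies were found with blastn 2.17.0 on the longest protein-coding transcript (at least 97% identity over 100 bases). Promoter windows are from RefSeq (GRCm38.p6). No protein sequence was used here. Alternatives were 3 other scalings, a pseudocount of 0.1, no filter, a mean TPM of at least 5, no trend, a replicate block and each library left out in turn. Values of 1 member are not reported here.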

Additional observations from a re-analysis of the deposited data

How the results depend on the processing

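Read depth is unknown, and a fit that leaves out 1 library leaves an arm of 2. With 3 against 3 samples an exact permutation test of a single gene cannot go below 0.1, so calls rest on the variance shared across genes. The count of nuclear members called, 4 with all libraries, was 1 with median-of-ratios scaling, 2 with the replicate block, 0 to 7 over the removals of 1 library, and 7 without control replicate 1 with the total taken without mitochondrial genes, a setting chosen after seeing the data. The count over all genes, 919, was 774 with the block, 116 to 1539 over removals, and 1628 in that added setting. The count for other mitochondrial genes and biogenesis regulators was 6, all higher, in the main fit. It was 2 with the total without mitochondrial genes (Slc25a5 and Mrpl12) and 3 with upper-quartile scaling (Mrpl12, Nfe2l2 and Slc25a5). With median-of-ratios scaling it was 3 (Nfe2l2 higher, Mrps30 and Pprc1 lower). Over removals it was 0 to 13, the 13 without control replicate 1 being 12 higher and 1 lower. For complex I the count of 1 became 0 with the 3 scalings, without the trend and with the block, and was 0 to 2 over removals. For complex II it was 0 with median-of-ratios scaling and without the filter, and 0 to 1 over removals. For complexes III and IV removals gave 0 to 1. For complex V the count of 2 was 1 with median-of-ratios scaling and with the block, and 0 to 2 over removals. The mitochondrial count was 0 in every setting run. The removals have fewer libraries; for the other settings the cause was not tested.

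Samples with the same replicate number deviated from their group means with correlations of 0.25, -0.07 and 0.04. For samples with different numbers the correlations lay between -0.28 and 0.21. So few values cannot decide whether the numbers pair the samples.

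Some log2 fold changes near 0 changed sign. Over removals the ranges were -0.49 to 0.32 for mt-Atp6, -0.13 to 0.33 for mt-Co2, -0.41 to 0.22 for mt-Co3, -0.26 to 0.48 for mt-Nd3, -0.082 to 0.060 for Cyc1, -0.030 to 0.17 for Cox4i1, -0.19 to 0.015 for Cox4i2, -0.086 to 0.15 for Cox6a1, -0.26 to 0.042 for Cox6b2, -0.16 to 0.068 for Cox7a2, -0.029 to 0.069 for Atp5g1, -0.0075 to 0.12 for Sdha and -0.038 to 0.035 for Sdhb. With the total without mitochondrial genes, with median-of-ratios and with upper-quartile scaling, Atp5g1 was -0.027, -0.026 and -0.0082, and Sdhb was -0.049, -0.048 and -0.030. Cox7a2l was -0.0045 and -0.0033 with the first and second of these.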
